A study of Mus musculus with 6 samples.

Results

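The genes described here encode subunits of the mitochondrial respiratory chain and of ATP synthase, and were measured in RNA of the left cochlea after sound trauma with and without mesenchymal stromal cells (MSCs). They were selected from the authors' 2 deposited lists of genes that differed between the treatments, by symbol (Nduf, Sdha to Sdhd, Uqcr, Cyc1, Cox4 to Cox8 and Atp5). This gave 53 of the 3716 named genes in those lists and of the 41096 genes in the table. All 53 stood in the down-regulated list (0 in the up-regulated list), so a lower mean after MSC treatment is what chose them. That difference is given below as a description, and nothing is read from how many of them pass a threshold.

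The mice were female C57BL/6 animals (C56Bl/6 in the labels), 1 month old, whose left ear was exposed to 16 kHz sound. All carried this noise injury. The 3 MSC treated animals (specimens 13, 18 and 20) then received cells from human umbilical cord Wharton's jelly in the posterior semicircular canal. The 3 sound trauma animals (specimens 6, 8 and 10) are labelled as noise only, while the study's methods describe an injection of artificial perilymph. The labels put RNA extraction 2 days after treatment and the methods put it later, and no library of an animal without noise was analysed here. The methods also name more replicates per condition than the 3 libraries per group analysed here.

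The respiratory chain passes electrons from NADH and succinate to oxygen and pumps protons across the inner mitochondrial membrane, and ATP synthase uses that proton gradient to make ATP. Complex I oxidizes NADH, complex II oxidizes succinate, complex III passes electrons to cytochrome c, and complex IV (cytochrome c oxidase) hands them to oxygen. In the cochlea the stria vascularis, the hair cells and the spiral ganglion neurons are rich in mitochondria, as is skeletal muscle. Most subunits have 1 gene used in every tissue. A few places in complex IV can be filled by a heart and skeletal muscle isoform, encoded by Cox6a2, Cox7a1 and Cox8b, and these are described apart.

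Levels are scaled counts, the read count of a gene multiplied by 1 factor per library. The 6 values of a gene are given in a fixed order, with specimens 6, 8 and 10 (sound trauma) before the word against and specimens 13, 18 and 20 (MSC treated) after it. Reads on genes lay between 9170390 and 11030863 per library, and every member had at least 32 reads in each. Of 20 cochlear markers listed for this report 7 had a name, among them Otof and Pou4f3 of hair cells, and all 7 were detected in every library, with sums of 1967, 2080 and 4875 against 3393, 4236 and 3558. The 28 named skeletal muscle markers (of 32) took 10.7%, 0.554% and 3.16% of reads against 6.83%, 1.29% and 1.44%. The 12 named neuron markers (of 16) took 0.395% in specimen 8 and 0.0557% to 0.105% elsewhere. Whole cochleae were used, so a change in the number of cells of a type and a change of RNA per cell cannot be told apart. A gene had a name only if it stood in a deposited list: the 7 cochlear markers all stood in the up-regulated list and the 28 muscle and 12 neuron markers in the down-regulated list, so the direction of these marker levels between the groups is in part set by that choice.

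Across the 6 libraries the members moved almost as 1 unit. Sound trauma specimen 6 had the highest value for 52 of the 53 genes, and for 51 it was followed by MSC treated specimen 13. Among all 15970 genes fitted, specimen 6 was highest for 21.1%, and this order of 6 before 13 was found for 11.9%. The members come from the down-regulated list, which itself favours a sound trauma library as the highest, so these shares are a background and not a test. Taken over the members, the median log2 ratio to the gene's own median of the 6 libraries was 1.12, -0.04 and 0.03 against 0.57, -0.10 and -0.17, so that the libraries other than 6 and 13 lay close together. In summed scaled counts the members came to 161919, 71549.5 and 74620.4 against 111101, 68202 and 65989.

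**Figure D1:**
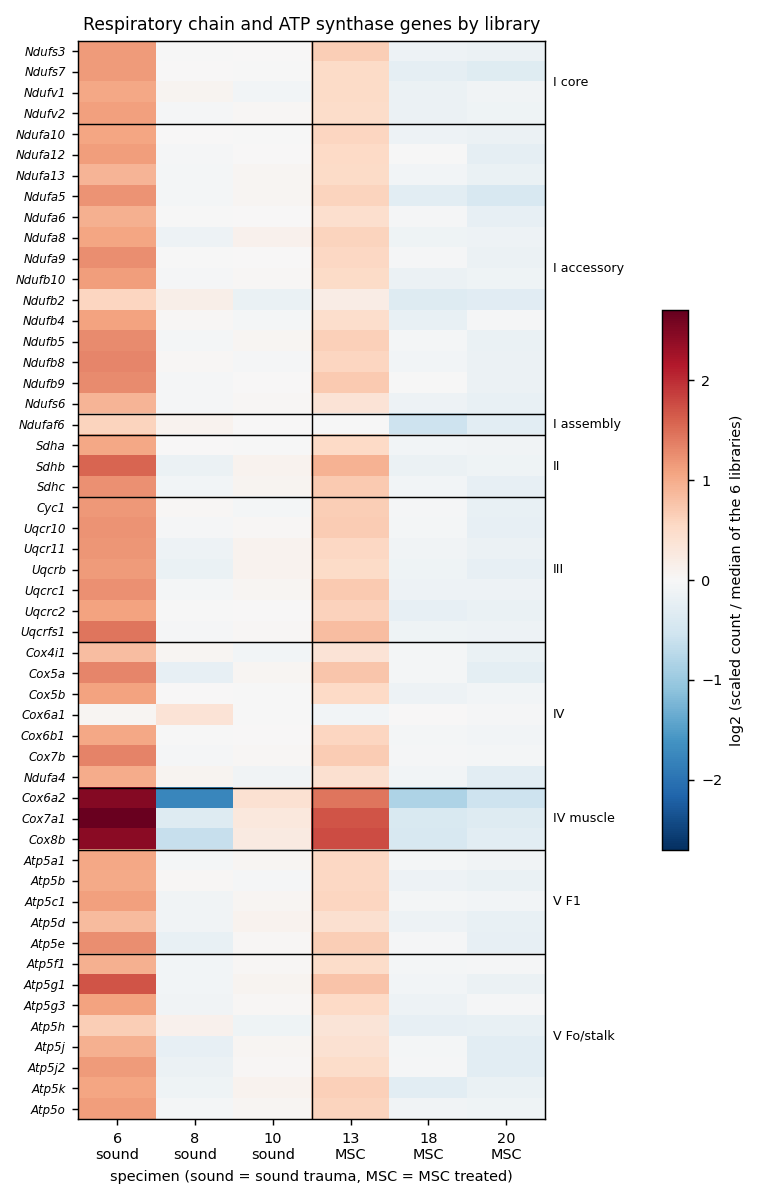
Each row is 1 of 52 of the 53 members (1 is not shown), grouped by complex, and each column a library; colour is the log2 ratio of the scaled count to the gene's median over the 6 libraries. Specimen 6 is the warmest column and specimen 13 the next for most rows, the 3 muscle isoforms carry the strongest colours, Cox6a1 is palest in specimen 6, and Ndufaf6 is not raised in specimen 13.

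The subunits are counted here out of lists of nuclear genes. The subunits encoded by mitochondrial DNA, such as cytochrome b of complex III, were not analysed here. Of complex I, 19 of 37 listed subunits were members. Its core subunits hold the flavin and the iron-sulfur clusters that carry electrons from NADH, and 5 of 7 listed core genes were members. Ndufv1 (MGP_C57BL6NJ_G0025054), which binds NADH, had scaled counts of 2712, 1385 and 1237 against 1889, 1181 and 1236. Specimen 13 therefore lay above 2 of the 3 sound trauma values, and the groups overlapped. The iron-sulfur subunit Ndufs7 had 1959.7, 890.1 and 876 against 1255, 745 and 699. Ndufs3 had 1304, 582 and 588 against 931, 534 and 523, and the iron-sulfur subunit Ndufv2 had 2052, 925 and 979 against 1352, 857 and 881. In these genes too specimen 6 was far above the other libraries and specimen 13 next. The highest library stood 2.19-fold above the median of the other 5 for Ndufv1, and the median of this ratio over the core subunits was 2.24-fold.

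The 14 named accessory subunits of complex I (of 30), which surround the core and stabilize it, all had specimen 6 highest and specimen 13 second. Ndufb8 (MGP_C57BL6NJ_G0025588), in the membrane arm, was the accessory subunit with the largest ratio of the highest library to the median of the others, 2.54-fold, from 1929.6, 795 and 760.3 against 1163, 744 and 697 scaled counts. Ndufb2 had the smallest, 1.71-fold, from 373, 279 and 218 against 287, 196 and 202. The median of the 14 was 2.23-fold. A further member is not a subunit: Ndufaf6 (MGP_C57BL6NJ_G0028459) acts in the assembly of complex I. Its scaled counts were 74.2, 51.6 and 49.1 against 47.8, 32.7 and 39.8, so that specimen 13 did not stand above the sound trauma libraries. It was the only member in which each sound trauma library exceeded each MSC treated library, 1 of 53, where 2.92% of all fitted genes had such a downward separation. Without specimen 13 the count was 30 of 53, where 8.38% of all genes had it. The members were chosen on this direction, so neither count is a test.

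Complex II, the succinate dehydrogenase of the citric acid cycle, has 4 subunits, all of nuclear genes, of which 3 were members. The flavoprotein Sdha (MGP_C57BL6NJ_G0021153) had 6806, 3354 and 3290.4 against 4833, 3152 and 3089.8 scaled counts. The iron-sulfur subunit Sdhb (MGP_C57BL6NJ_G0029457) spread more widely, with 3068, 918 and 1107 against 1965, 928 and 956, and its highest library was 3.21-fold above the median of the others, compared with 2.07-fold for Sdha. The membrane anchor Sdhc had 2375, 957 and 1059.6 against 1645, 953 and 866. Within this small complex the subunits thus kept the same order of the first 2 libraries but not the same size of difference.

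Of the 9 listed complex III genes 7 were members (Cyc1, Uqcr10, Uqcr11, Uqcrb, Uqcrc1, Uqcrc2 and Uqcrfs1), and for 7 of 7 specimen 6 was highest and specimen 13 next. Uqcrfs1 (MGP_C57BL6NJ_G0020800), the Rieske iron-sulfur protein, had the largest ratio, 2.79-fold, from scaled counts of 2333, 837 and 869 against 1521, 782 and 779. The core protein Uqcrc2 had the smallest, 2.15-fold, from 3112, 1450.3 and 1476 against 2253, 1254 and 1283. Cyc1, the cytochrome c1 that donates electrons to cytochrome c, lay between them at 2.31-fold.

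ATP synthase was named with 5 of 5 genes of the catalytic F1 part (Atp5a1, Atp5b, Atp5c1, Atp5d and Atp5e) and 8 of 10 listed genes of the membrane part and stalks (Atp5f1, Atp5g1, Atp5g3, Atp5h, Atp5j, Atp5j2, Atp5k and Atp5o). The 13 genes all had specimen 6 highest and specimen 13 second. In F1 the ratio was smallest for Atp5d at 1.94-fold, from 4487, 2315 and 2617 against 3315, 2226 and 2158 scaled counts. It was largest for Atp5e at 2.44-fold, from 1752, 641 and 754 against 1173, 718 and 635. The catalytic beta subunit Atp5b, with 21233, 10711 and 10224 against 15488, 9576 and 9192, had the highest scaled count of the 53 genes in each library.

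The membrane ring of ATP synthase is built from subunit c, which several genes encode with the same mature protein and different import sequences. Atp5g1 (MGP_C57BL6NJ_G0019390) had the largest ratio outside the muscle isoforms, 3.4-fold, with 3133, 917 and 1023 against 1658, 920.2 and 874 scaled counts, while its paralog Atp5g3 had 2.15-fold. The stalk subunit Atp5h had the smallest ratio of this part, 1.72-fold, with 1292, 887 and 752 against 1047, 708 and 715. Subunit genes of this kind have many processed pseudogenes and, for subunit c, close paralogs, and how reads shared between copies were counted is not given in the sources used here, so levels of single genes are uncertain to that extent.

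In complex IV, 7 of 15 listed genes other than the muscle isoforms were members (Cox4i1, Cox5a, Cox5b, Cox6a1, Cox6b1, Cox7b and Ndufa4), and 6 of the 7 had the common order of libraries. Cox5a had the largest ratio, 2.62-fold, from 3189, 1096 and 1322 against 2126, 1219 and 1061 scaled counts. Cox6a1 (MGP_C57BL6NJ_G0030398), the form of subunit VIa made in most tissues, was the only 1 of the 53 genes in which specimen 6 was not highest. Its values were 1565, 1955 and 1506 against 1443, 1527 and 1480.3. Specimen 8 was highest, 1.3-fold above the median of the others, and specimen 13 was lowest.

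The muscle isoforms followed the common order with a larger range. Cox6a2 (MGP_C57BL6NJ_G0033568), the muscle form of subunit VIa, had scaled counts of 6535, 342 and 1538 against 3166, 652 and 790.2. Cox7a1 had 1247, 152 and 236 against 635, 146 and 151, and Cox8b had 1655, 199 and 361 against 1041, 227 and 248. The highest library was 8.27-fold, 8.2-fold and 6.66-fold above the median of the others for Cox6a2, Cox7a1 and Cox8b. For the 50 other members this ratio had a median of 2.23-fold and a largest value of 3.40-fold. Specimen 10 came next after specimens 6 and 13 for all 3 muscle isoforms, and specimen 8 was lowest for Cox6a2 and Cox8b. For Cox6a2 the sound trauma values alone ran from 342 to 6535, a range that held all 3 MSC treated values.

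The paired genes of subunit VIa make the contrast within 1 position of the enzyme. The ratio of Cox6a2 to Cox6a1 scaled counts was 4.18, 0.175 and 1.02 against 2.19, 0.427 and 0.534. It differed 23.9-fold between the highest and the lowest library, and both of these were sound trauma animals. The ratio of the muscle form to the general form of mitochondrial creatine kinase (Ckmt2 to Ckmt1) also had specimen 6 first and specimen 13 second, with 11.6, 0.353 and 2.61 against 8.34, 0.900 and 1.45. So did the ratio of muscle to neuronal enolase (Eno3 to Eno2), with 9.14, 0.226 and 3.21 against 8.88, 1.07 and 1.20. The aldolase pair (Aldoa to Aldoc) had another order, with 28.2, 1.35 and 41.7 against 80.6, 9.85 and 24.4, so that specimen 13 was first, specimen 10 second and specimen 6 next. Aldoa itself had specimen 6 first and specimen 13 second, with 73346, 13483 and 23832 against 45323, 14996 and 15494 scaled counts. Aldoc had 2605, 9979 and 571 against 562, 1523 and 635. In all 4 pairs the ratio was lowest in specimen 8, where the second gene of each pair had its highest scaled count.

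**Figure D2:**
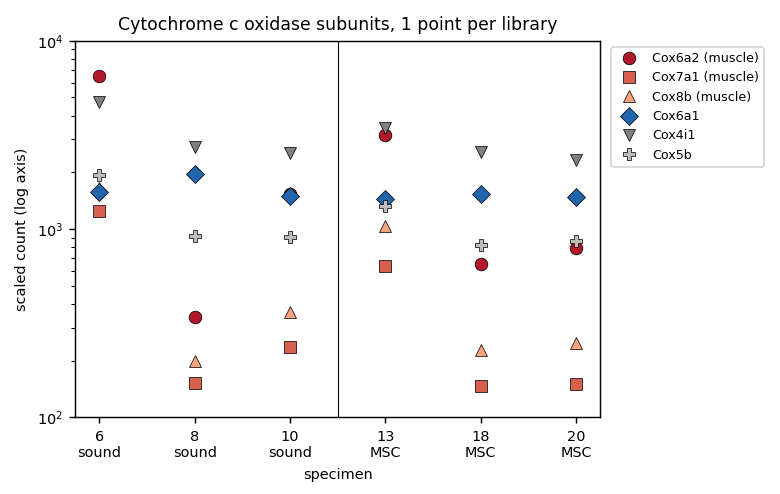
Scaled counts (log axis) of 6 cytochrome c oxidase subunit genes in each library, 1 point per library, with sound trauma on the left and MSC treated on the right of the line. Cox6a2, Cox7a1 and Cox8b spread most, with their highest points in specimen 6 (where the Cox8b point, at 1655, is covered by that of Cox6a1, at 1565), and Cox6a1 stays between 1443 and 1955.

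The promoters of these genes were read from RefSeq (GRCm38.p6), a C57BL/6J assembly and not the C57BL/6NJ genome to which the reads were aligned. A window of 250 bases before and 50 after the listed start was used for 42 of the 53 members. Any member on a single chromosome was left out of this search, while the windows of all genes kept that chromosome. The sequences shown run from 200 bases before to 30 after the listed start, and were chosen because they set the muscle isoforms Cox7a1 and Cox8b beside the general subunit Cox6a1 and beside Atp5k, a gene of the membrane part of ATP synthase whose highest library was 2.26-fold above the median of the others. Cox6a1 and Atp5k were picked after their motifs were seen, as genes rich in matches: they and Uqcr11 are the only 3 of the 42 that hold both NRF1 and ETS letters, so they do not stand for the general subunits. Capitals mark matches on either strand to the motifs named in the next paragraph. NRF1 letters read on both strands overlap themselves, and no motif spelled out holds another.
Cox6a1, chr5:115348929-115349158, minus strand: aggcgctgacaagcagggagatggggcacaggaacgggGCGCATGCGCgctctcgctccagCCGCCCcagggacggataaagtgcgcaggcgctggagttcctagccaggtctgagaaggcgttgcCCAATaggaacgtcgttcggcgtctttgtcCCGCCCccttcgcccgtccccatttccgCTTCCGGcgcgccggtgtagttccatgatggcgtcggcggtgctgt
Atp5k, chr5:108434370-108434599, minus strand: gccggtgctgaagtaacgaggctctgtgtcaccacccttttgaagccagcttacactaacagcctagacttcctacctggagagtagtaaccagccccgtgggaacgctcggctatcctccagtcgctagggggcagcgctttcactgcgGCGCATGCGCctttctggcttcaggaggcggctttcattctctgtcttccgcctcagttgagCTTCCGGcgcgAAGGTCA
Cox7a1, chr7:30183971-30184200, plus strand: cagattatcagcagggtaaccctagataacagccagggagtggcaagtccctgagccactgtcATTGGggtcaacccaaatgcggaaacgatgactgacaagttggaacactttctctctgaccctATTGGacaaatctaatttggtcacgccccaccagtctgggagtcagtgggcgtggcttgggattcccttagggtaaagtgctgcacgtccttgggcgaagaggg
Cox8b, chr7:140900417-140900646, minus strand: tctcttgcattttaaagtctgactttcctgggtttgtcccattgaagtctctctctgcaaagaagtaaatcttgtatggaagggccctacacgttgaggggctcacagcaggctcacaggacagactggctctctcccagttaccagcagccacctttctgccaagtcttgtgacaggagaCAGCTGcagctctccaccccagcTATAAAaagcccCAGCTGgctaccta

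Cox6a1 and Atp5k held letters of NRF1 and of the ETS family, which are known to act on many respiratory chain genes, and no TATA box. Cox8b held a TATA box just after the listed start, with an E-box, the letters bound by muscle regulators such as MyoD, on either side of it. Cox7a1 held the CCAAT box at 2 places and none of the other motifs. The NRF1 letters GCGCATGCG stood in 5 of the 42 members' windows, which is 11.9%, compared with 1.81% of the windows of all 27025 genes. The ETS letters CCGGAAG stood in 8 of the members' windows, which is 19.0%, compared with 9.12% of all windows. The YY1 letters AAGATGGCG stood in 4 windows, which is 9.52%, compared with 1.49%. For the estrogen-related receptors (ERR), the letters AAGGTCA stood in 5 windows, which is 11.9%, compared with 4.66% of all. The CCAAT box was in 19 windows, or 45.2% compared with 37.9%, and the Sp1 letters GGGCGG were in 16 windows, or 38.1% compared with 35.9%. The E-box CAGCTG was in 5 windows, or 11.9% compared with 16.1%, and the TATA box, searched as TATAAA, was in 2 windows, or 4.76% compared with 14.2%. MEF2 letters were in 0 windows, compared with 3.26% of all. These are descriptions of short windows, and a missing match says only that the letters are not in that window. The median GC content was 58.5% in the members' windows and 52.7% in all.

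The comparison of MSC treated with sound trauma animals asks whether the cell therapy altered cochlear gene expression. All 53 members had a lower fitted level in MSC treated animals, as their choice implies, with log2 fold changes from -0.56 for Cox7a1 to -0.17 for Cox6a1 and a median of -0.27, beside 0.00 over all genes fitted. For most of them the difference was smaller than its standard error. In limma's fit Atp5g1 was at -0.38 with a standard error of 0.51 and Cox6a2 at -0.36 with a standard error of 1.12. The 5 members whose difference exceeded its standard error were Ndufs7, Ndufa5, Ndufb2, Ndufaf6 and Cox6a1, with Ndufaf6 at -0.52 with a standard error of 0.27 and Cox6a1 at -0.17 with a standard error of 0.14. The counts past a threshold are printed beside those of all genes, and are no test of genes chosen for this direction: by limma, 0 of the 53 passed an adjusted p of 0.05, where 0% of the 15970 genes did, and 0 were lower at an unadjusted p of 0.05, where 0.67% of all genes were.

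In limma's fit the median log2 fold change was -0.28 for complexes I, II and III, -0.25 for complex IV without the muscle isoforms, -0.36 for the muscle isoforms, -0.22 for F1 and -0.24 for the rest of ATP synthase. The value of the muscle isoforms depended on the tool, at -0.82 in edgeR and -0.84 in DESeq2, where all members had -0.34 and -0.35. All of these medians turned positive when specimen 6 was left out. Without it 47 of the 53 members had a higher fitted level in MSC treated animals, the median was 0.12, and the muscle isoforms reached 0.54. The 6 that stayed lower were Ndufaf6 (-0.34), Cox6a1 (-0.21), Ndufb2 (-0.13), Ndufa5 (-0.04), Ndufs7 (-0.02) and Atp5h (-0.01). Without specimen 13 the median was -0.50 and the muscle isoforms were at -1.07. The median of the muscle isoforms also turned without specimen 18, to 0.05, with Cox6a2 at 0.07 and Cox8b at 0.05. Cox7a1 stayed lower there, at -0.19. Without specimen 20 the median of the muscle isoforms was -0.07.

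When specimens 6 and 13 were both left out, a setting chosen after the data were seen, 53 of 53 members were again lower in MSC treated animals, with a median of -0.12 and a range from -0.47 (Ndufaf6) to -0.02 (Cox6a2). In 30 of the 53, specimens 8 and 10 both lay above specimens 18 and 20, a pattern found for 13.7% of all genes fitted, and the members were chosen on the direction it shows. Ndufa5, an accessory subunit, had 423 (specimen 8) and 457 (specimen 10) scaled counts against 363 (specimen 18) and 324 (specimen 20). Between the largest and smallest value of these 4 libraries the members had a median of 1.18-fold. The range was 1.06-fold to 1.58-fold outside the muscle isoforms, whose median was 1.82-fold, and Cox6a2 ran from 342 in specimen 8 to 1538 in specimen 10.

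**Figure D3:**
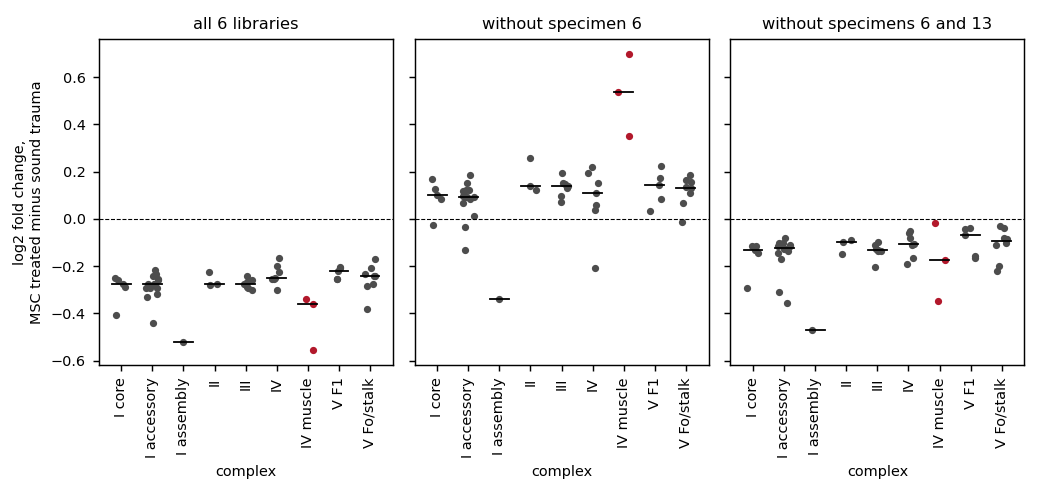
Log2 fold change (MSC treated minus sound trauma) of each member by complex, 1 point per gene with the median as a bar and the muscle isoforms in red, from all 6 libraries, without specimen 6 and without specimens 6 and 13. The medians are below 0 on the left and right, and above 0 in the middle for every complex but the single assembly factor.

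Skeletal muscle markers were highest in the same 2 libraries as the members, specimens 6 and 13, and differed from them in the others. Their summed scaled counts were 1212009, 53047 and 311458.5 against 704621.5, 120519 and 136854, and all 28 were detected in every library. For 25 of them specimen 6 was highest, and for 21 specimen 13 came second after it. The skeletal actin Acta1 had 197744, 4805 and 46818 against 110922, 18546 and 22354, and the fast muscle calcium pump Atp2a1 had 191774, 9280.5 and 45097 against 123049.9, 16376 and 18106. The slow myosin Myh7 had another order, with 3485, 62.1 and 1946 against 423, 1212 and 624, so that specimen 13 lay below specimens 18 and 20. In specimen 8 the median log2 ratio to the gene's median of the 6 libraries was -2.26 over the markers and -0.04 over the members. The setting without specimens 6 and 13 was chosen after the data were seen. In it, 20 of the 28 markers had a higher and 8 a lower fitted level in MSC treated animals (median log2 fold change 0.16). All 53 members were lower (median -0.12), which is the direction on which they were chosen. The markers stood in the same list, and the difference between the 2 sets was not tested. The share of reads on the 53 members was 1.44%, 0.747% and 0.757% against 1.08%, 0.728% and 0.696%.

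The fat droplet protein Plin1 had 549, 189 and 21.4 against 299, 23.5 and 49.5 scaled counts, with specimens 6 and 13 highest as well. Of the 8 brown fat markers listed for this report 4 had a name, Plin1, Plin5, Cox7a1 and Cox8b, so that 2 of the 3 muscle isoforms are also markers of brown fat. All 4 had specimen 6 highest and specimen 13 second, which for Cox7a1 and Cox8b repeats the order given above. The neuron markers had another order, with 11 of 12 highest in specimen 8, the library in which Cox6a1 was highest too. The part of muscle, fat or neural tissue in the members' levels was not tested. Without the muscle isoforms the members took 1.35%, 0.740% and 0.736% of reads against 1.03%, 0.717% and 0.683%, so the order of the first 2 libraries was the same. Specimen 13 exceeded a gene's median of the 6 libraries by a median of 41.9% of the amount by which specimen 6 did, over the members highest in specimen 6, and by 46.8% over the muscle markers highest in specimen 6.

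**Figure D4:**
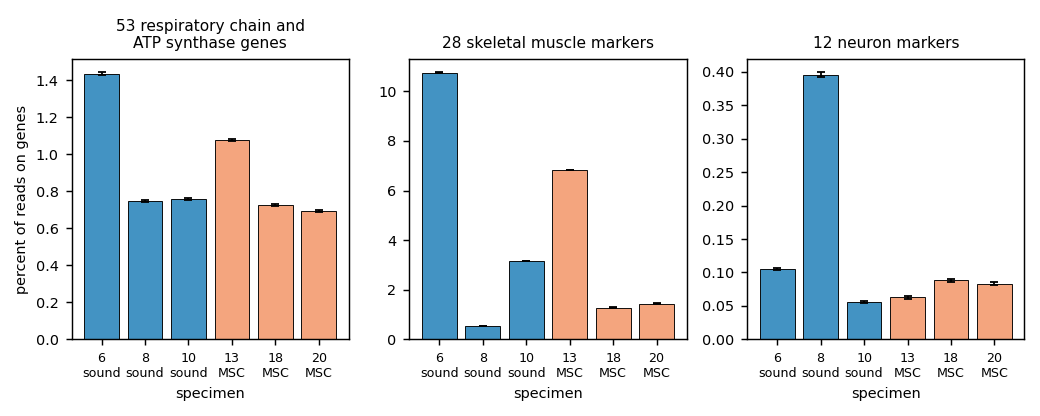
Percent of all reads on genes taken by the 53 members, the 28 named skeletal muscle markers and the 12 named neuron markers in each library, with 95% Wilson intervals that cover counting error only. The members and the muscle markers are highest in specimen 6 and then 13, and the neuron markers in specimen 8.

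**Figure D5:**
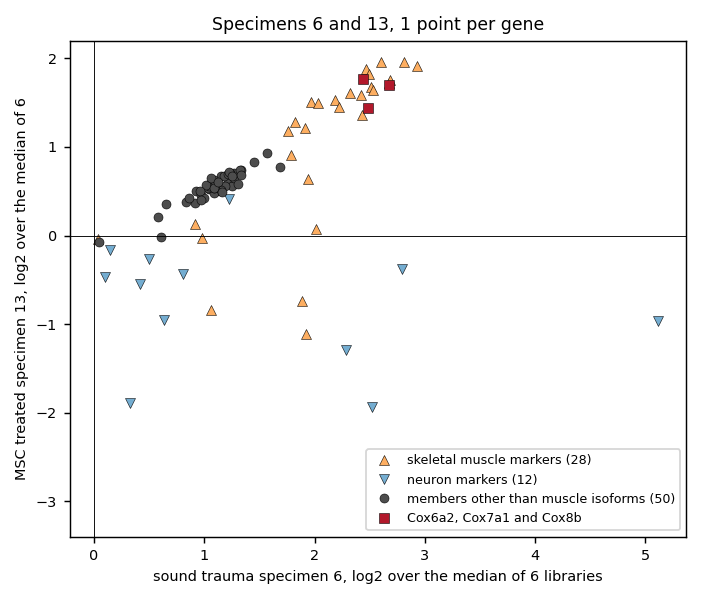
Each point is a gene, placed by the log2 ratio of its scaled count to its median of the 6 libraries in sound trauma specimen 6 (horizontal) and MSC treated specimen 13 (vertical). Most members lie near 1 line, the 3 muscle isoforms lie among the muscle markers at its upper end, and 11 of the 12 neuron markers lie below 0 for specimen 13.

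Other genes of energy metabolism were taken from lists of 131 genes, of which 52 had a name. All of these but Sco1 stood in the down-regulated list. Specimen 6 was highest and specimen 13 second for 41 of the 52, where 11.9% of all genes fitted had this order. The list favours a sound trauma library as the highest, so this is no test. None of the 52 passed an adjusted p of 0.05 in limma in either direction, where 0% of the 15970 genes did. None passed an unadjusted one, where 107 of the 15970 genes were lower and 269 higher. In the citric acid cycle 12 of 13 named genes were highest in specimen 6. Ogdh, of the alpha-ketoglutarate dehydrogenase complex, had scaled counts of 10255, 4363 and 5293 against 8053, 4275 and 4614. The exception was its isoform Ogdhl, with 781, 802 and 405 against 425, 664 and 393. Among the electron carriers and enzymes of coenzyme Q synthesis 8 of 8 were highest in specimen 6, from 1.51-fold for Coq6 to 5.62-fold for Coq10a above the median of the others.

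In the transfer of energy out of mitochondria, the adenine nucleotide carrier Slc25a4 had 20191, 4175 and 5969 against 11938, 4888 and 4736 scaled counts. The highest library stood 1.89-fold above the median of the others for Slc25a3 and 2.74-fold for Vdac1, compared with 9.58-fold for Ckmt2. The sarcomeric creatine kinase Ckmt2 had 8044, 339 and 1091 against 3993, 597 and 839.7, whereas its general counterpart Ckmt1 had 694, 961 and 417 against 479, 664 and 578. Among 9 named glycolytic genes 7 were highest in specimen 6. The highest library stood 1.86-fold above the median of the others for Pkm and 4.48-fold for Pfkm, compared with 8.81-fold for Eno3. The muscle enolase Eno3 had 17575, 946 and 3615 against 10500.4, 1967 and 1995, and the neuronal enolase Eno2 had 1923, 4179.9 and 1126 against 1182, 1837 and 1669, with its highest value in specimen 8. Of the 6 named assembly factors 5 were highest in specimen 6, and the copper chaperone Sco1, the 1 that stands in the up-regulated list, had 89.2, 106 and 77.7 against 118, 115 and 124.

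Per gene length, the authors' mean FPKM (fragments per kilobase of a gene, scaled to the depth of the library) of the sound trauma group was highest for Cox6a2, at 378, followed by Cox6b1 at 368 and Atp5a1 at 343. In the authors' mean of the MSC treated group Cox6a2 was at 225, below Cox6b1 at 328, Atp5a1 at 305 and Atp5b at 275. Which libraries these means cover was not checked. The mean hides the spread of Cox6a2, whose scaled count in specimen 6 was 8.27-fold above the median of the other libraries. Ndufaf6 had the lowest mean in both groups, at 4.58 and 3.32.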

How the data were processed

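RNA of the left cochlea was sequenced in 3 sound trauma and 3 MSC treated animals. Per the study's methods, reads were trimmed and aligned to the C57BL/6NJ genome; the counting tool and its use of strand are not given in the sources used here. The deposited table holds a signal, the read count times 1 factor per library, and 100% of its values were whole multiples of that factor (within 1.0e-06 reads), from which reads were recovered. The deposited lists hold the authors' FDR (an adjusted p-value), log2 fold change and mean FPKM per group. Their p-values and fold changes were not used, and gene names came only from these lists, so genes outside them were fitted by identifier.

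The members and the gene lists were chosen with earlier results of these data known. The design named edgeR on counts and limma for scaled values, so the values, as log2(scaled count + 1), were fitted with limma (trend), with Benjamini-Hochberg adjustment over the 15970 genes kept by filterByExpr; all 53 members passed. A fold change is on that scale. Nothing in the labels pairs animals across groups. Values in every library were given for the muscle isoforms, core complex I and complex II subunits, the members with the largest and smallest ratio in each complex, and any member whose groups did not overlap. Some values that this rule names are not reported here. Other genes are those with high counts in their list, and Atp5b, Atp5g3, Cyc1, Ndufa5, Coq6, Coq10a, Myh7, Plin1, Ogdhl, Sco1, Ckmt1 and the isoform pairs were chosen after their values were seen. The fits were first tested on simulated data. Whole cochleae give 3 animals a group, and intervals cover counting error only.

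Alternatives were other scalings, filters, pseudocounts and tests, and leaving out libraries. RefSeq promoters were matched by symbol, any member on a single chromosome was left out, and members with no match were not searched further. Software comprised Python 3.11.15 with pandas 2.3.3, scipy 1.17.1 and matplotlib 3.10.9, and DESeq2 1.42.0, limma 3.58.1 and edgeR 4.0.16 under R 4.3.3.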

Additional observations from a re-analysis of the deposited data

How the results depend on the processing

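All 53 members kept a lower fitted level in MSC treated animals under median-ratio scaling, total count scaling, no filter, pseudocounts of 0.1 and 10, edgeR and DESeq2, with a median log2 fold change between -0.35 (DESeq2) and -0.19 (total counts); total counts moved the median of all genes from 0.00 to 0.07. Leaving out 1 library gave medians from -0.50 to 0.12, with 47 signs turned without specimen 6 and 2 (Cox6a2 and Cox8b) without specimen 18. For the muscle isoforms this range was -1.17 to 0.54, and edgeR and DESeq2 gave -0.82 and -0.84 in place of -0.36. The count of genes past an adjusted p of 0.05 in limma was 0 with all libraries (107 lower and 269 higher at an unadjusted p under 0.05), and also 0 with edgeR (266 and 259) and DESeq2 (550 and 249); leaving out 1 library gave 0 to 1, the 1, which is no member, without specimen 10, where 1083 genes were lower and 1395 higher at an unadjusted p under 0.05. Members whose groups did not overlap numbered 1 under median-ratio and total count scaling (3.13% and 1.52% of all genes) and 1 to 30 without 1 library. They numbered 1 without specimen 6, 8 or 20 (7.45%, 5.69% and 5.39%) and 30 without specimen 13 (8.38% of all genes). Without specimens 6 and 13 together they also numbered 30, where 13.7% of all genes did not overlap in that direction. Without specimen 10 or 18 they numbered 2, where 15.6% and 5.70% of all genes did not overlap in that direction. Specimen 6 was highest for 52 members under each scaling. No paired analysis was possible because the specimen numbers of the groups share none. With 3 animals a group, differences of the size seen in the members could not be told from the spread between animals.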
